A study of Rattus norvegicus with 72 samples.

Results

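The conjugation enzymes of the second phase of drug metabolism were taken as every gene whose symbol placed it among the UDP-glucuronosyltransferases of families 1 and 2 (Ugt1, Ugt2), the cytosolic and membrane-bound glutathione transferases (Gst, Mgst) or the sulfotransferases (Sult). The rule found 37 of the 14506 genes measured, namely 7 glucuronosyltransferases, 19 glutathione transferases and 11 sulfotransferases. Each gene was represented by its probe set of highest mean signal, and a second probe set exists for Gsta4 only. A further 8 probe sets carry several gene identifiers and are described separately. Of these, 7 name several enzymes, among them the set shared by the 8 Ugt1a symbols, and 1 names Sult1e1 under 2 identifiers.

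The study followed rat liver as it regrew after partial hepatectomy (PHx, surgical removal of part of the liver) in animals fed ethanol chronically (EtOH), a high fat diet (HF) or a carbohydrate diet (CHO). Each of 36 rats gave 2 arrays, a control liver piece taken at the operation and the remnant 1, 6 or 24 h later, with 4 rats for each diet and time. All animals had the operation, no sham-operated animals are listed, and the labels state no strain, sex, age or length of feeding. Of the 72 arrays, 9 are marked as outliers in the labels and were not used unless stated, which left 10, 9 and 8 complete animals at 1, 6 and 24 h (EtOH 4, 4 and 3, HF 3, 2 and 3, CHO 3, 3 and 2). Control livers were compared on 12 EtOH, 9 HF and 8 CHO arrays. The titles and diet tags set the diets, but the source names exchange HF and CHO, and which of these is right was not tested. The EtOH 24 h replicate 4 remnant, an outlier array used only where all 72 arrays are, is titled EtOH and tagged High fat. The control array of that animal is titled EtOH and tagged Ethanol and was kept, and without it 16 genes each passed in EtOH minus CHO and EtOH minus HF controls. If the source names are right, the EtOH minus CHO and EtOH minus HF results below exchange places. The animals of different times were also scanned on different days, so that a difference between times cannot be told apart from one between scan days or animals, while a change within an animal is free of the day shift.

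These enzymes attach a water-soluble group to drugs, steroids, bile acids, bilirubin and reactive products, so that the liver can pass them to bile or urine. Glucuronosyltransferases sit in the endoplasmic reticulum and use UDP-glucuronate, most glutathione transferases are cytosolic and use glutathione, and the cytosolic sulfotransferases use the sulfate donor PAPS. In liver many of them are controlled by the nuclear receptors Nr1i2 (PXR) and Nr1i3 (CAR), by Ahr and by Nfe2l2 (NRF2). In bulk tissue, fewer cells of a type and less RNA per cell cannot be told apart.

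Promoter sequence was available for 31 of the 37 genes (RefSeq, build GRCr8), as 300 bases that span each gene's start. The windows below belong to the glucuronosyltransferase that split the animals (Ugt2b), to 1 that was higher with ethanol (Ugt2a3), to mu-class genes of the same chromosome (Gstm3, which rose at 1 h, and Gstm7, which fell at 6 and 24 h) and to the sulfotransferase that fell most at 6 h (Sult2a1). They lie at chr14:20985199-20985498 (plus strand), chr14:20851720-20852019 (plus strand), chr2:198300618-198300917 (minus strand), chr2:198260270-198260569 (minus strand) and chr1:84638898-84639197 (minus strand). Capitals mark any match, on either strand, to the antioxidant response element core TGACNNNGC, the E-box CACGTG or the D-box TTATGTAA. They also mark, again on either strand, GTTAAT (a part of the HNF1 site), the STAT site TTCNNNGAA and the promoter box TATAAA.
Ugt2b: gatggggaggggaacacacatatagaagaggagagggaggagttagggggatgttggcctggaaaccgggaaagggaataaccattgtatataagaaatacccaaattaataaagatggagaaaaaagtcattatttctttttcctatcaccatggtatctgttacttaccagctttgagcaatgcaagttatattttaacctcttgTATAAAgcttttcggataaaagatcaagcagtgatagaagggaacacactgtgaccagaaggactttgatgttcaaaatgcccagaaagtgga
Ugt2a3: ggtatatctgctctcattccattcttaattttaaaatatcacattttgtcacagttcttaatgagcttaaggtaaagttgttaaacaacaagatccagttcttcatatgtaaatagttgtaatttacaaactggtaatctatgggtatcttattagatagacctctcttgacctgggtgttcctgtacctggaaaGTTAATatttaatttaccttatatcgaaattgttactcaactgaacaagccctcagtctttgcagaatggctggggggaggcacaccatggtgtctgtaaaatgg
Gstm3: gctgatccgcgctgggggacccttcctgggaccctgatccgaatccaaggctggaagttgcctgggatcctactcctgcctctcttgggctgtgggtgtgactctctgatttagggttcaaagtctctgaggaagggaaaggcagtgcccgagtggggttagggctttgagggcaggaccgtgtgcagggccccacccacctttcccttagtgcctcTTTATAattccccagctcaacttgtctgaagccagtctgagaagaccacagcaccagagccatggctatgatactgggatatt
Gstm7: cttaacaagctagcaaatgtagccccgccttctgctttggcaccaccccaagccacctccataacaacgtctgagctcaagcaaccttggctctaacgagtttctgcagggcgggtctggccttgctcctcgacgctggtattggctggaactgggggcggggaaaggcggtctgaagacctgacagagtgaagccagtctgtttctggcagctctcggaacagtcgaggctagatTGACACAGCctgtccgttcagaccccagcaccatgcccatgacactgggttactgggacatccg
Sult2a1: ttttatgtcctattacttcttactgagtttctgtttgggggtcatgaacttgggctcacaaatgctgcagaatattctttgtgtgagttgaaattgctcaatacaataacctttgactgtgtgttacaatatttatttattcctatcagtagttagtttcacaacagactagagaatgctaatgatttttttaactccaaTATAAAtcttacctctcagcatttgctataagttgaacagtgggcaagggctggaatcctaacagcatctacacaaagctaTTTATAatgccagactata
TGACNNNGC was found in 5 of the 31 windows (Gsta1, Gsta3, Gstm5, Gstm7 and Gstp1), and in 13.12% of the windows of all 27457 genes. GTTAAT was found in 4 (Gsta1, Gsta3, Sult2a2 and Ugt2a3, against 8.122% of all), TATAAA in 8 (15.27% of all) and TTCNNNGAA in 5 (9.386% of all). CACGTG was found in 2 (7.077% of all) and TTATGTAA in Gsta3 alone (0.9579% of all). A match describes the letters and not a bound site. The windows of Sult1c2 and Ugt2b1 held none of the 6 motifs.

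Signals are on a log2 scale, and a level is compared only with levels of the same probe set. The array medians ran from 4.54 to 4.77. Mean levels over all 72 arrays, outliers included, ran from 12.08 for Mgst1 and 12.00 for Gstm1 down to 2.71 for Sult6b1. Of these means, 9 lay below the highest array median (Gsta3, Gstm6, Gstm6l, Sult1d1, Sult4a1, Sult5a1, Sult6b1, Ugt2a1 and Ugt2b7). The files hold no detection calls, so those 9 are not shown to be above background. Of the 37 genes, 29 passed the test in at least 1 of 6 comparisons, the mean responses at the 3 times and the 3 diet comparisons of control livers. Of all genes, 10.3%, 39.9% and 34.1% passed at 1, 6 and 24 h. In control livers 11.8% passed in EtOH minus CHO, 13.5% in EtOH minus HF and 0.165% in HF minus CHO. The share of all genes that passed in at least 1 of the 6 was not counted, so the 29 has no background to be set against. Gsto2, Sult1d1, Sult4a1, Sult5a1, Sult6b1, Ugt2a1, Ugt2b and Ugt2b7 passed in none of these 6. Hepatocyte markers (10 genes including albumin) were high on all arrays, and their mean level ranged from 12.62 to 12.86 in the control livers.

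Ugt2b, also named Ugt2b2, is the form known in rat for conjugating androsterone. In the values before batch correction the 36 animals, with the outlier arrays included, fell into separate ranges. In 20 animals the control livers ran from 3.43 to 4.31 and the remnants from 3.13 to 4.17. In the other 16 animals the control livers ran from 9.40 to 11.54 and the remnants from 9.50 to 11.43. All 36 animals stayed in the same range in both of their arrays.

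The empty gap between the ranges was 5.09 log2 units, the widest of all 14506 genes in a count that required at least 5 animals on each side. Only 7 genes had such a gap above 1, and Ugt2b was the only conjugation enzyme among them. The high range held 6 of 12 EtOH, 5 of 12 HF and 5 of 12 CHO animals, and both ranges occurred on 7 of the 8 scan days (the remaining day held 1 animal). The change within an animal stayed between -1.10 and 0.64. In the rat, absence of this gene from some stocks is known as background, but DNA was not examined here. Batch correction spread these levels to between 2.77 and 12.45, and the diet differences in control livers had errors larger than the differences (EtOH minus CHO 0.55 ± 1.56, EtOH minus HF -0.15 ± 1.42, SE), so that no statement on Ugt2b and diet was possible.

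**Figure D1:**
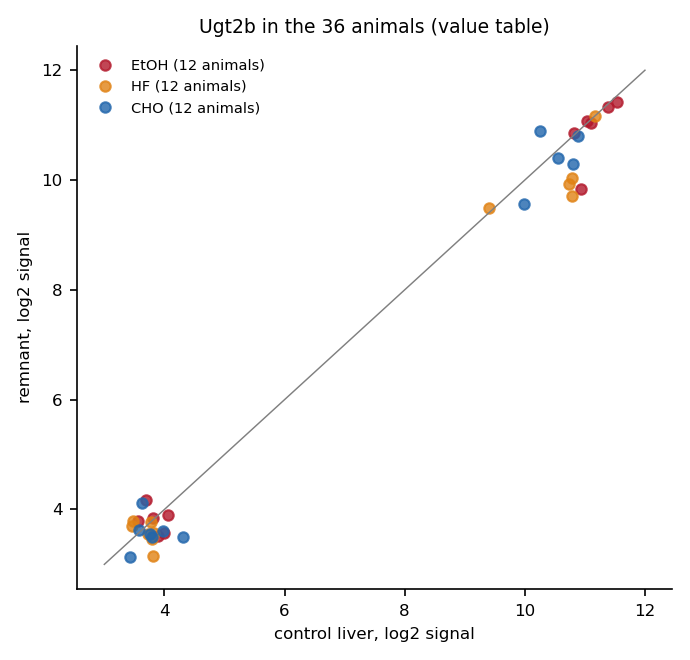
Ugt2b log2 signal in the control liver (x axis) and the remnant (y axis) of each of the 36 animals before batch correction, coloured by diet, with the line of equality. Outlier arrays are included. The 20 animals of the low range and the 16 of the high range are separated by 5.09 log2 units, and each range holds animals of all 3 diets.

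Before the operation, ethanol-fed livers had higher signals than livers of both other diets for glucuronosyltransferases Ugt2a3 and Ugt2b1, for glutathione transferases Gstm3 and Gsta3 and for a set of smaller increases, and lower signals for Sult1c2 and Sult1c3. Of the 37 genes, 13 were higher and 2 lower in EtOH than in CHO, where 11.8% of all genes passed the test (6.35% higher and 5.46% lower). Against HF, 14 were higher and 3 lower, where 13.5% of all genes passed (7.41% higher and 6.05% lower). By family, EtOH minus CHO gave 2 higher of 7 glucuronosyltransferases, 8 higher of 19 glutathione transferases, and 3 higher and 2 lower of 11 sulfotransferases. EtOH minus HF gave 2 of 7 higher, 9 of 19 higher with 1 lower, and again 3 higher and 2 lower of 11. The median gene differed by 0.19 and 0.10, against 0.01 for all genes in both comparisons. The 2 comparisons share the 12 EtOH arrays.

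Ugt2a3, whose human form conjugates bile acids, ran from 9.31 (median 9.74) to 9.96 in EtOH controls. The HF controls ran from 7.69 (median 8.84) to 9.13, and the CHO controls from 7.76 (median 8.20) to 8.69. Every ethanol liver lay above every other liver. The log2 difference was 1.51 ± 0.15 (SE, 2.85-fold) against CHO, with adjusted p = 4.86e-08, and 1.07 ± 0.13 (2.11-fold) against HF, with adjusted p = 1.66e-06.

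Ugt2b1, a form that phenobarbital induces in rat liver, ran from 9.90 (median 10.47) to 11.74 in EtOH, from 8.89 (median 9.44) to 9.90 in HF and from 8.08 (median 9.16) to 10.04 in CHO. The ethanol livers lay above all HF livers and overlapped with the highest CHO livers. The difference was 1.38 ± 0.23 against CHO (adjusted p = 0.000147) and 1.23 ± 0.21 against HF (adjusted p = 0.000138). Ugt2b37 and Ugt2b35, which fell after surgery, did not pass (log2 differences between 0.04 and 0.14).

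Among glutathione transferases, Gstm3, of the mu class, ran from 5.00 (median 5.72) to 7.64 in EtOH, from 4.24 (median 4.70) to 5.02 in HF and from 3.52 (median 4.36) to 4.78 in CHO. The ethanol livers lay above all CHO livers and overlapped with HF only at their lowest. The difference was 1.64 ± 0.27 (3.12-fold, adjusted p = 0.000106) against CHO and 1.26 ± 0.24 (2.40-fold, adjusted p = 0.000531) against HF. Gsta3, of the alpha class, ran from 4.68 (median 5.52) to 6.17 in EtOH, from 3.87 (median 4.39) to 4.83 in HF and from 3.40 (median 4.42) to 4.79 in CHO, with a small overlap. Its difference was 1.30 ± 0.19 against CHO (adjusted p = 2.59e-05) and 1.22 ± 0.17 against HF (adjusted p = 1.15e-05). In the HF and CHO livers both genes lay near or below the array medians, so that these levels, and with them the size of the folds, are not shown to be above background.

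Gstt1, of the theta class, ran from 7.98 (median 8.40) to 8.84 in EtOH, from 7.28 (median 7.95) to 8.08 in HF and from 7.43 (median 7.90) to 8.21 in CHO. The groups overlapped at their edges, and EtOH was higher by 0.62 ± 0.13 than CHO (adjusted p = 0.00111) and by 0.58 ± 0.11 than HF (adjusted p = 0.000724). Gstk1, the mitochondrial and peroxisomal form, ran from 9.46 (median 9.91) to 10.10 in EtOH, from 8.90 (median 9.33) to 9.51 in HF and from 8.93 (median 9.32) to 9.91 in CHO. It was higher by 0.65 ± 0.12 than in HF (adjusted p = 0.000462). Against CHO the difference of 0.42 ± 0.14 only just passed (adjusted p = 0.0441), was lost with 14 of the 29 arrays left out in turn, and was -0.17 in the 24 h cohort alone.

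Smaller increases in both comparisons were found for Gsta1 (0.41 and 0.52), Gsta4, which clears the lipid peroxidation product 4-hydroxynonenal (0.46 and 0.37), Gstm7 (0.45 and 0.39) and Gstm4 (0.44 and 0.32). The second Gsta4 probe set, fitted with all probe sets, gave 0.48 ± 0.12 against CHO (adjusted p = 0.0142). Against HF that set gave 0.26 ± 0.11 and did not pass (adjusted p = 0.185). Gstm5 was higher against HF (0.50), while against CHO its difference of 0.41 did not pass. HF minus CHO did not pass for Gstm5 either (-0.09 ± 0.19, adjusted p = 0.978), so no difference between these results was shown. Gsto1, an omega-class enzyme, was the only glutathione transferase that was lower with ethanol, by -0.25 ± 0.07 against HF (adjusted p = 0.00993). Leaving out some single arrays ended the calls of Gsta4 (0.38 to 0.40), Sult1a1 (0.21) and Sult2a2 (0.37 to 0.38) against CHO, and of Gsta4 (0.31 to 0.36), Gstm4 (0.25 to 0.31) and Gstm5 (0.41 to 0.52) against HF. The other 11 of 15 and 14 of 17 calls held with every array left out in turn.

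Among sulfotransferases, Sult1c2 ran from 5.87 (median 6.74) to 7.501 in EtOH, from 7.86 (median 8.39) to 9.23 in HF and from 8.24 (median 8.42) to 9.40 in CHO. Every ethanol liver lay below every other liver. The difference was -1.92 ± 0.19 against CHO (adjusted p = 6.04e-08) and -1.79 ± 0.17 against HF (adjusted p = 2.54e-08). Sult1c3, a gene of the same subfamily on chromosome 9, ran from 10.62 (median 10.89) to 10.98 in EtOH, from 11.14 (median 11.31) to 11.49 in HF and from 11.18 (median 11.26) to 11.43 in CHO, again with no overlap. It was lower by 0.47 and 0.48 log2 units (-0.47 ± 0.07 and -0.48 ± 0.06).

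Sult2a2, a hydroxysteroid sulfotransferase, ran from 9.65 (median 9.96) to 10.38 in EtOH, from 9.02 (median 9.31) to 9.68 in HF and from 9.27 (median 9.49) to 10.03 in CHO. It was higher by 0.63 ± 0.11 than in HF (adjusted p = 0.000166) and by 0.44 ± 0.12 than in CHO (adjusted p = 0.0148). Sult1b1, which sulfates thyroid hormones, ran from 10.65 (median 10.93) to 11.16 in EtOH, from 10.26 (median 10.69) to 10.89 in HF and from 10.08 (median 10.51) to 10.66 in CHO. Its differences were 0.45 ± 0.09 against CHO and 0.28 ± 0.08 against HF. The phenol sulfotransferase Sult1a1 was higher by 0.26 and 0.33, and Sult2a1 did not pass (-0.11 and 0.18).

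The probe sets with several gene identifiers were fitted with all 29214 probe sets. The set for Sult2a2 and Sult2a6 was higher in EtOH by 2.43 ± 0.25 against CHO and 2.52 ± 0.22 against HF, where Sult2a2 alone gave 0.44 and 0.63. The set for Sult1e1, the estrogen sulfotransferase, which carries 2 gene identifiers, was lower by 0.79 and 0.82 log2 units (-0.79 ± 0.22 and -0.82 ± 0.20).

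**Figure D2:**
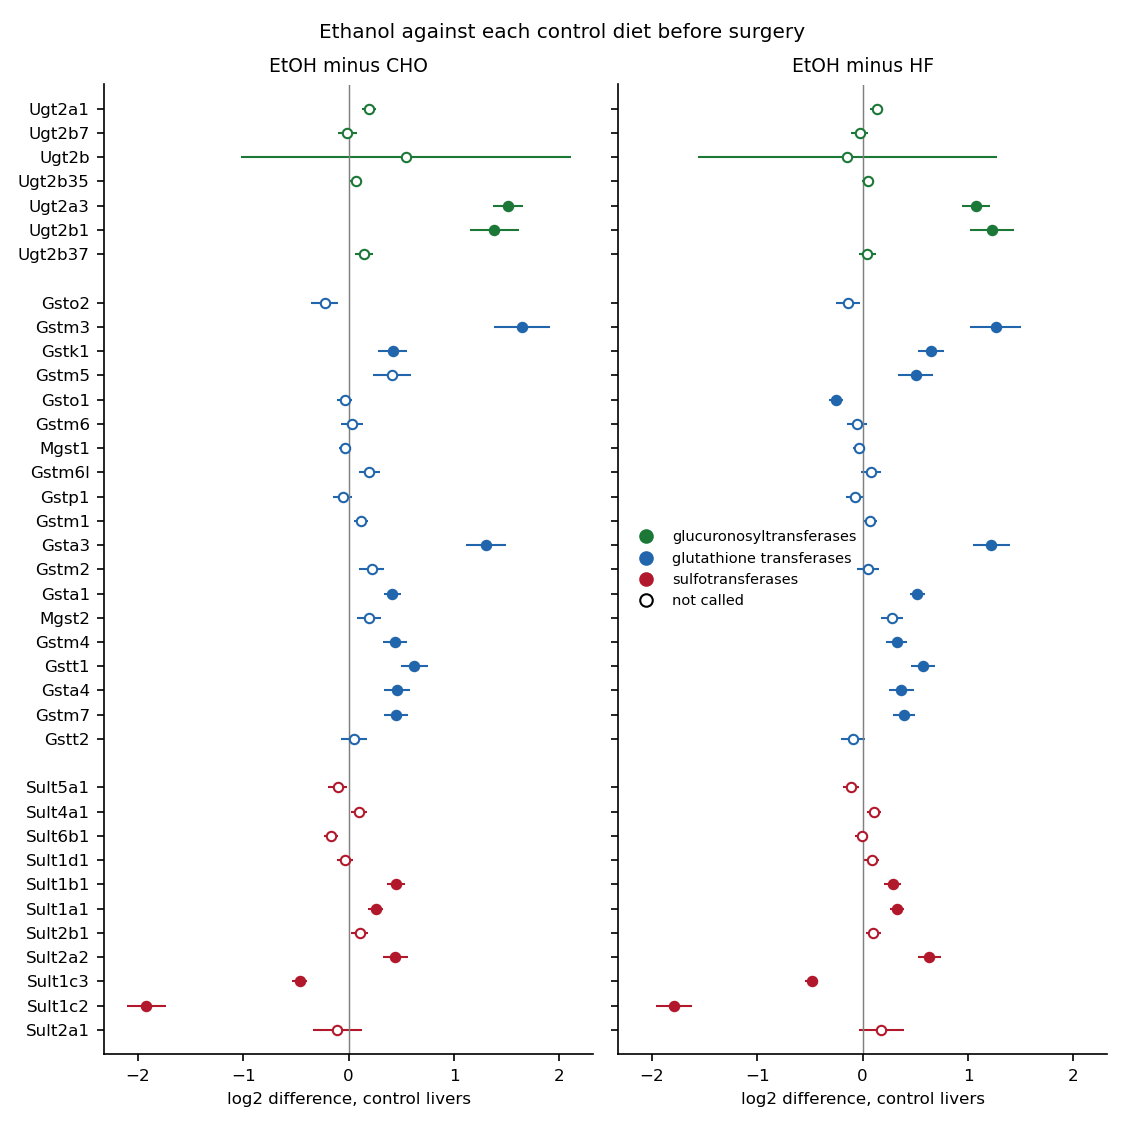
Log2 difference (x axis, with standard error) of ethanol-fed control livers against the CHO (left) and HF (right) diets for each of the 37 genes, coloured by family. Filled points passed the test. Ugt2a3, Ugt2b1, Gstm3 and Gsta3 lie above 1 in both panels, Sult1c2 lies at -1.92 and -1.79, and the error of Ugt2b exceeds 1.

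Between HF and CHO control livers, none of the 37 passed in limma (0.165% of all genes did), and 3 had an unadjusted p below the threshold, against 6.97% of all genes.

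Some markers of other cells and zones moved with diet. Of all genes, 6.35% were higher and 5.46% lower in EtOH than in CHO, and 7.41% and 6.05% in EtOH than in HF. Each count of higher or lower markers covers that direction only. Macrophage markers were higher in EtOH for 4 of 11 genes against CHO and 8 of 11 against HF, and their mean level ran from 7.36 to 8.24 in EtOH, from 6.98 to 7.76 in HF and from 7.17 to 7.78 in CHO. Of 9 measured markers of pericentral hepatocytes, 5 were lower in each comparison, and their mean level ran from 7.45 to 7.87 in EtOH, from 7.82 to 8.12 in HF and from 7.84 to 8.08 in CHO. Of 10 periportal markers, 2 and 6 were higher. The part of these shifts in the enzyme results was not tested. None of the 10 hepatocyte markers passed in either comparison, and their mean level was 12.75, 12.71 and 12.74 in EtOH, HF and CHO.

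At 1 h after PHx, few conjugation enzymes had moved. Of 37 genes, 1 rose and 1 fell in the mean of the 3 diets, where 10.3% of all genes passed (4.47% rose and 5.83% fell), and the median change was -0.04, against -0.01 for all genes. Gstm3 rose from 5.58, 6.15, 5.67 and 6.57 to 7.40, 6.64, 6.78 and 8.29 in the 4 EtOH animals, from 4.66, 5.02 and 4.85 to 6.47, 6.96 and 6.00 in HF, and from 4.37, 4.78 and 3.52 to 6.27, 5.91 and 5.06 in CHO. It rose in all 10 animals, by 0.49 to 1.95. The mean change was 1.48 ± 0.15 (SE, 2.79-fold, adjusted p = 7.25e-08), and it passed within each diet (1.29, 1.64 and 1.52 in EtOH, HF and CHO). It was the only gene of the 37 called within a diet at 1 h, where 2.94%, 2.12% and 1.85% of all genes passed (1.73%, 1.5% and 1.27% rising).

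After the rise, Gstm3 levels ran in the order EtOH, HF and CHO, with overlap between neighbouring diets. Remnants at 1 h ran from 6.64 to 8.29 in EtOH, from 6.00 to 6.96 in HF and from 5.06 to 6.27 in CHO. At 6 h Gstm3 no longer stood above its control (0.01 ± 0.16), with 5 of 9 animals higher. By diet the 6 h change was 0.40 ± 0.23 in EtOH (3 of 4 animals higher, from -0.45 to 1.52), 0.33 ± 0.27 in CHO (2 of 3 higher) and -0.72 ± 0.33 in HF (0 of 2 higher), none of which passed. The change at 6 h was below that at 1 h by 1.48 (-1.48 ± 0.22, adjusted p = 5.55e-06). Remnants at 6 h still ran from 5.77 to 7.19 in EtOH against 4.08 to 4.32 in HF and 4.13 to 4.76 in CHO.

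Sult2a2 fell from 10.30, 9.77, 10.23 and 10.38 to 10.12, 9.78, 9.88 and 10.31 in EtOH, from 9.63, 9.13 and 9.12 to 8.72, 9.05 and 9.13 in HF, and from 9.53, 9.56 and 9.77 to 9.34, 8.95 and 9.53 in CHO. It fell in 8 of 10 animals, and HF replicate 1 and CHO replicate 2 moved most. The change was -0.27 ± 0.08 (adjusted p = 0.0383). The call was lost with 6 of the animals left out in turn (-0.29 to -0.18), and was -0.18 without HF replicate 1. No gene of the 37 differed in its 1 h response between diets in limma (0% of all genes did in each comparison, and 0 of the 37 had an unadjusted p below the threshold).

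At 6 h, the glutathione transferases, glucuronosyltransferases and sulfotransferases fell broadly, with Sult2a1 and Sult1c2 falling most. Of 37 genes, 26 fell and 0 rose in limma (39.9% of all genes passed, 19.9% falling and 20% rising). At an unadjusted p below the threshold, 28 fell and 0 rose (44.7% of all genes passed in either direction). The median gene changed by -0.39, against -0.00 for all genes. The falls covered 4 of 7 glucuronosyltransferases (median -0.47), 15 of 19 glutathione transferases (median -0.41) and 7 of 11 sulfotransferases (median -0.32).

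Sult2a1, the hydroxysteroid and bile acid sulfotransferase, fell from 10.98, 10.64, 10.45 and 9.63 to 7.60, 6.20, 8.44 and 7.04 in the 4 EtOH animals, from 9.51 and 10.51 to 7.46 and 9.03 in HF, and from 10.06, 10.89 and 11.00 to 7.08, 9.001 and 7.67 in CHO. All remnants lay below all control livers. The change was -2.53 ± 0.18 (5.79-fold lower, adjusted p = 8.98e-12). Sult1c2 fell from 6.71, 5.95, 7.15 and 6.64 to 5.50, 4.36, 5.62 and 4.76 in EtOH, from 9.06 and 8.36 to 6.14 and 6.24 in HF, and from 8.24, 8.40 and 8.53 to 5.26, 6.01 and 5.84 in CHO. It fell in all 9 animals, by -2.25 ± 0.15 (4.77-fold lower, adjusted p = 1.48e-12).

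Sult1c3 fell from 10.98, 10.90, 10.91 and 10.68 to 9.95, 9.72, 9.94 and 9.92 in EtOH, from 11.31 and 11.30 to 9.95 and 10.18 in HF, and from 11.28, 11.39 and 11.31 to 10.17, 9.99 and 9.95 in CHO. All remnants lay below all controls, and the change was -1.17 ± 0.10 (adjusted p = 1.67e-10). The other sulfotransferases that fell were Sult2a2 (-0.96), Sult2b1 (-0.39), Sult1a1 (-0.32) and Sult1b1 (-0.27). Sult1d1, Sult4a1, Sult5a1 and Sult6b1, all near or below the array medians, did not pass.

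Among glutathione transferases, Gstt2, of the theta class, fell from 9.42, 9.38, 9.35 and 9.46 to 7.89, 7.57, 7.73 and 7.99 in EtOH, from 9.40 and 9.42 to 7.98 and 8.07 in HF, and from 9.36, 8.97 and 9.31 to 7.53, 7.83 and 7.69 in CHO. The change was -1.51 ± 0.09 (2.84-fold lower, adjusted p = 1.30e-13), and the groups did not overlap. Gstm7 fell from 8.90, 9.06, 8.93 and 9.12 to 7.77, 8.003, 8.04 and 8.26 in EtOH, from 8.74 and 8.47 to 7.58 and 7.69 in HF, and from 8.55, 8.48 and 8.29 to 7.14, 7.79 and 7.70 in CHO (-0.95 ± 0.10, adjusted p = 2.00e-08). Its remnants also lay below all of its control livers.

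Gsta4 fell from 9.29, 9.55, 9.29 and 9.44 to 8.35, 8.47, 8.38 and 8.92 in EtOH, from 8.80 and 8.78 to 7.87 and 8.28 in HF, and from 8.64, 9.03 and 8.82 to 7.47, 8.20 and 7.98 in CHO. The change was -0.84 ± 0.10 (adjusted p = 4.43e-08). It fell in all 9 animals, although the highest EtOH remnant lay above the lowest CHO control. The second Gsta4 probe set gave -0.72 ± 0.11. Of the probe sets shared by Gsta2 and Gsta5, 1 changed by -0.74 ± 0.08 at 6 h and -0.80 ± 0.08 at 24 h, and the other by -0.75 ± 0.08 and -0.93 ± 0.08, all called, with a fall in every animal.

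The other 12 glutathione transferases that fell ranged from -0.74 for Gstt1 to -0.18 for Gsto1. They included Gstm4 (-0.64), the membrane-bound Mgst2 (-0.62), Gsta1 (-0.60), Gstm2 (-0.59) and Gstm1 (-0.41). Gstk1, Gstm3, Gstm5 and Gsto2 did not pass. Leaving out single animals ended the calls of Gsta3 (-0.37 without HF replicate 3), Gstm6 (-0.26 to -0.25), Gsto1 (-0.20 to -0.15), Gstp1 (-0.26 to -0.17) and Sult1b1 (-0.22 to -0.18). Without HF replicate 4, Gstp1 changed by -0.17. The remaining 21 of 26 calls held with every animal left out in turn.

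Among glucuronosyltransferases, Ugt2b37 fell from 9.60, 9.61, 9.73 and 9.92 to 8.95, 8.40, 9.10 and 9.30 in EtOH, from 9.92 and 9.80 to 8.59 and 8.92 in HF, and from 9.49, 9.36 and 9.62 to 8.45, 8.31 and 8.61 in CHO. All remnants lay below all controls (-0.97 ± 0.07, adjusted p = 1.38e-11). Ugt2b1 fell from 10.30, 9.98, 10.45 and 10.92 to 9.62, 8.86, 9.68 and 10.27 in EtOH, from 9.22 and 9.001 to 8.49 and 7.93 in HF, and from 9.32, 9.20 and 9.01 to 8.10, 7.92 and 8.07 in CHO (-0.95 ± 0.11, adjusted p = 2.02e-08). The EtOH remnants still lay above the HF and CHO remnants.

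Ugt2a3 fell from 9.52, 9.47, 9.73 and 9.84 to 8.92, 8.45, 8.80 and 8.96 in EtOH, from 8.89 and 8.46 to 7.96 and 7.84 in HF, and from 7.76, 8.27 and 8.03 to 6.63, 6.75 and 7.33 in CHO. The change was -0.92 ± 0.11 (adjusted p = 3.79e-08), and again no HF or CHO remnant reached an EtOH remnant. Ugt2b35 fell by 0.47 (-0.47 ± 0.06). The set shared by Ugt2b15 and Ugt2b37 fell by 0.40 (-0.40 ± 0.05) at 6 h and by 0.67 (-0.67 ± 0.05) at 24 h, in all animals. The set shared by the Ugt1a symbols changed by -0.17 ± 0.07 at 6 h and did not pass (adjusted p = 0.0817).

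Within single diets at 6 h, 23 genes fell and 1 rose in EtOH (34.3% of all genes passed, 17.8% falling), 21 fell in HF (19.3%, 9.3% falling) and 20 fell in CHO (29.2%, 14.3% falling). The HF count rests on 2 animals and was 6 without replicate 3 and 11 without replicate 4. The rise in EtOH was that of Gsto2, an omega-class enzyme, which went from 4.80, 4.66, 5.06 and 4.94 to 5.87, 5.27, 5.44 and 5.56. In HF it went from 5.19 and 5.13 to 4.80 and 4.87, and in CHO from 4.97, 5.02 and 4.90 to 4.62, 4.91 and 4.64. All EtOH animals rose and all others fell, at levels close to the array medians. The response was higher in EtOH than in CHO by 0.91 ± 0.23 (adjusted p = 0.0387, 1.88% of all genes passed) and than in HF by 0.99 ± 0.26 (adjusted p = 0.0473, 2.05%). Neither call held in all alternatives, and with the outlier arrays included the EtOH minus HF value was 0.23. Gsto2 was the only gene of the 37 with such a difference at 6 h.

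**Figure D3:**
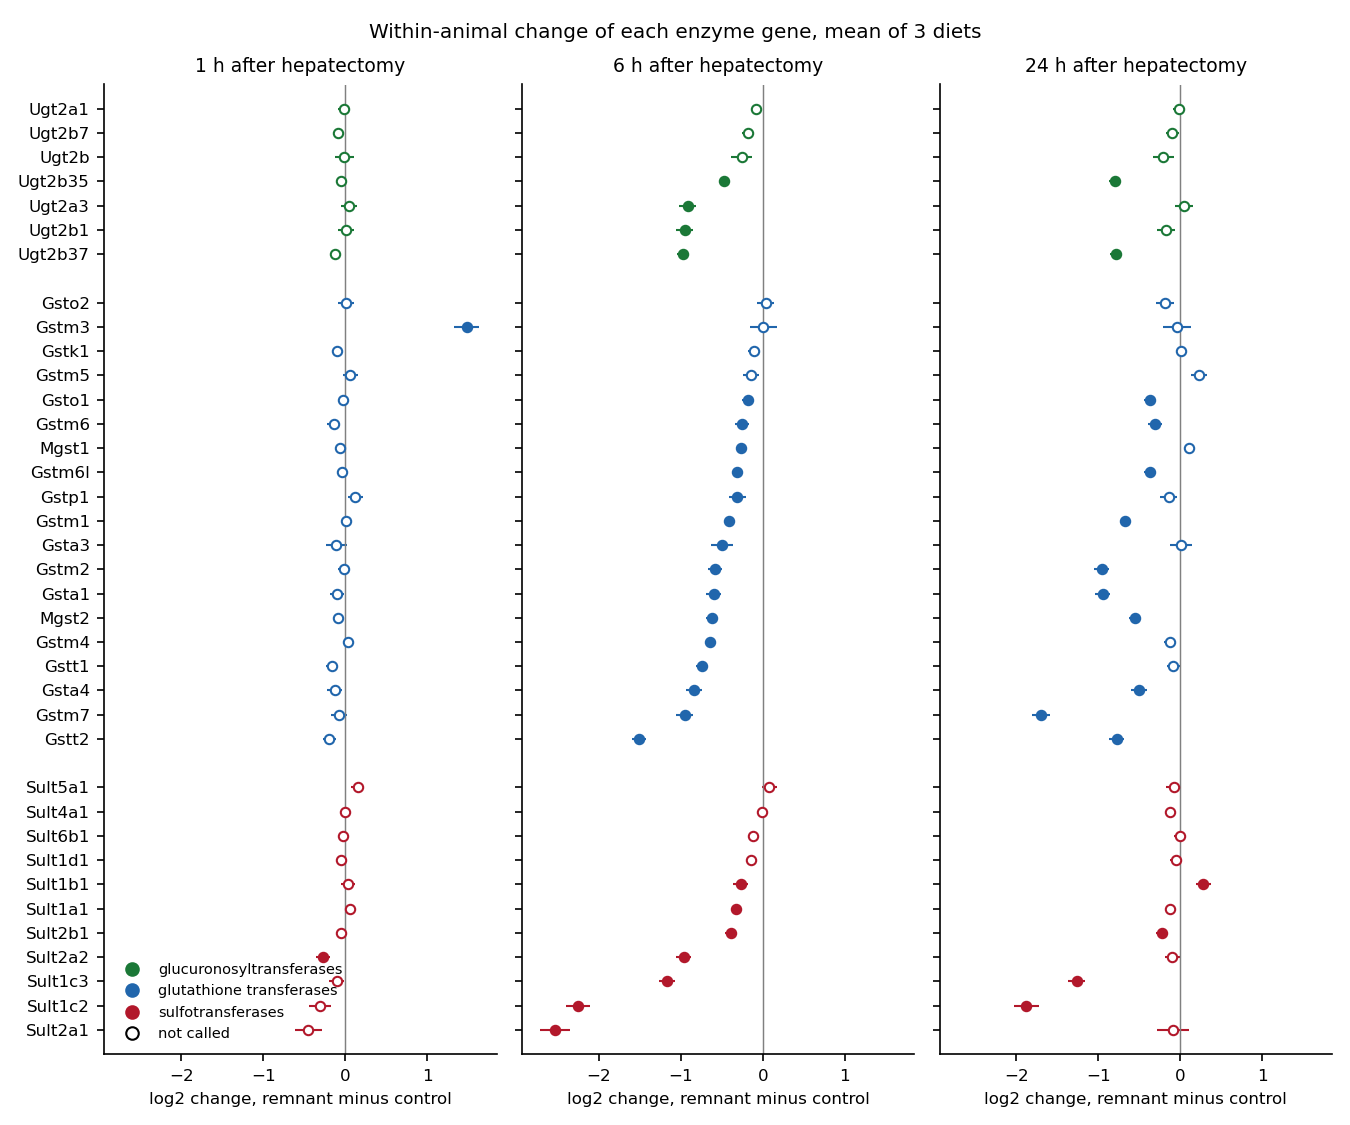
Log2 change from control liver to remnant (x axis, with standard error), as the mean of the 3 diets, for each of the 37 genes at 1, 6 and 24 h, coloured by family and ordered by the 6 h change within each family. Filled points passed the test, which left 1 rise and 1 fall at 1 h, 26 falls at 6 h, and 1 rise and 15 falls at 24 h.

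At 24 h fewer conjugation enzymes were below their controls, and most of these were glutathione transferases. Of 37 genes, 15 were still below their controls and 1 was above (34.1% of all genes passed, 17.4% falling and 16.6% rising), with a median of -0.14 against -0.03 for all genes. The falls covered 10 of 19 glutathione transferases (median -0.31), 2 of 7 glucuronosyltransferases (median -0.18) and 3 of 11 sulfotransferases (median -0.10). In the difference between the 24 h and 6 h responses, 10 genes moved up and 5 moved down (29% of all genes passed). These were 27.0% and 13.5% of the 37, against 14.6% up and 14.4% down for all genes. The share that moved down was thus near that of all genes. The 6 h response was below the 1 h response for 23 genes and above it for 0 (32.7% of all genes passed, 14.9% below and 17.7% above). At an unadjusted p below the threshold it was 25 against 0, with 39.1% of all genes passing.

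Sult2a1 no longer passed, with a change of -0.09 ± 0.19 at 24 h and 5 of 8 animals higher, and its response rose by 2.44 ± 0.27 between the times. Ugt2a3 (0.96 ± 0.15), Sult2a2 (0.86 ± 0.13), Ugt2b1 (0.77 ± 0.15), Gstt2 (0.73 ± 0.13), Gstt1 (0.65 ± 0.11), Sult1b1 (0.55 ± 0.13), Gstm4 (0.52 ± 0.10), Gstm5 (0.37 ± 0.14) and Mgst1 (0.37 ± 0.08) also moved up. Gstm7 (-0.75 ± 0.15), Gstm2 (-0.37 ± 0.12), Gsta1 (-0.35 ± 0.13), Ugt2b35 (-0.33 ± 0.09) and Gstm1 (-0.26 ± 0.09) moved further down.

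Gstm7 fell from 9.31, 8.93 and 8.76 to 6.82, 6.84 and 7.55 in EtOH, from 8.63, 8.60 and 8.71 to 7.03, 6.73 and 7.22 in HF, and from 8.40 and 8.53 to 7.27 and 6.65 in CHO. All remnants lay below all controls, and the change was -1.70 ± 0.11 (3.24-fold lower, adjusted p = 1.53e-12). Gstm2 fell from 10.26, 10.40 and 10.26 to 9.16, 9.33 and 9.93 in EtOH, from 9.97, 10.44 and 10.46 to 9.19, 9.02 and 9.40 in HF, and from 10.20 and 9.92 to 9.29 and 8.91 in CHO (-0.96 ± 0.09, adjusted p = 1.60e-09). It fell in all 8 animals.

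Gsta1 fell from 11.82, 11.74 and 11.57 to 10.42, 10.76 and 10.94 in EtOH, from 10.90, 11.46 and 11.45 to 10.31, 10.67 and 10.04 in HF, and from 11.30 and 11.66 to 10.84 and 10.30 in CHO. The change was -0.95 ± 0.09 (adjusted p = 6.99e-09), with a single EtOH remnant (10.94) above the lowest HF control. Gstt2 (-0.78), Gstm1 (-0.67), Mgst2 (-0.55), Gsta4 (-0.51), Gsto1 (-0.37), Gstm6l (-0.37) and Gstm6 (-0.31) were the other transferases below their controls. Chromosome 2 carries all 8 mu-class genes measured, and at 24 h their changes ran from -1.70 for Gstm7 to 0.23 for Gstm5.

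Ugt2b35 fell from 10.91, 11.09 and 10.79 to 10.05, 10.10 and 10.42 in EtOH, from 10.74, 11.01 and 11.10 to 10.11, 9.99 and 10.21 in HF, and from 10.84 and 11.08 to 10.28 and 10.01 in CHO. No remnant reached a control liver (-0.80 ± 0.07, adjusted p = 2.95e-10). Ugt2b37 fell from 9.74, 10.08 and 9.67 to 9.09, 8.96 and 9.02 in EtOH, from 9.53, 9.77 and 10.04 to 8.84, 8.88 and 9.09 in HF, and from 9.82 and 9.87 to 9.22 and 9.08 in CHO (-0.78 ± 0.08, adjusted p = 3.43e-09). Ugt2a3 (0.04) and Ugt2b1 (-0.18), which had fallen at 6 h, did not pass at 24 h. The Ugt1a set was lower by 0.22 log2 units at 24 h (-0.22 ± 0.08, adjusted p = 0.0320).

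Sult1c3 fell from 10.69, 10.84 and 10.87 to 9.89, 8.61 and 10.09 in EtOH, from 11.49, 11.40 and 11.36 to 10.03, 9.74 and 10.05 in HF, and from 11.23 and 11.24 to 10.02 and 10.37 in CHO. All remnants lay below all controls (-1.26 ± 0.10, adjusted p = 1.87e-10). Sult1b1 was the gene that rose. It went from 10.99, 10.89 and 10.75 to 10.89, 11.27 and 11.02 in EtOH, from 10.69, 10.89 and 10.44 to 10.82, 10.96 and 11.03 in HF, and from 10.32 and 10.57 to 11.04 and 10.61 in CHO. It rose in 7 of 8 animals, by 0.28 ± 0.09 (adjusted p = 0.0178), and the call was lost without EtOH replicate 2, HF replicate 4 or CHO replicate 2 (0.16 to 0.24). The set for Sult2a2 and Sult2a6 fell at 6 h (-1.21 ± 0.13, 9 of 9 animals) and rose at 24 h (0.38 ± 0.14, adjusted p = 0.0416, 7 of 8 animals). The Sult1e1 set fell at 6 h (-0.63 ± 0.13, 8 of 9 animals) and did not pass at 24 h (0.13 ± 0.13). The call of Sult2b1 (-0.23 ± 0.07), known for cholesterol sulfation, was lost without EtOH replicate 3 or CHO replicate 4 (-0.20 to -0.19).

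Sult1c2 at 24 h divided the diets. It went from 6.75, 6.90 and 6.96 to 5.20, 6.70 and 7.24 in the EtOH animals, from 8.39, 9.23 and 7.86 to 6.01, 5.93 and 5.82 in HF, and from 9.40 and 8.37 to 6.66 and 5.97 in CHO. The HF and CHO animals all fell by over 2 log2 units, while 1 of 3 EtOH animals fell clearly and 1 rose. The EtOH animal that rose, replicate 3, was the only complete pair of its scan day. The mean changes were -0.49 ± 0.25 in EtOH (adjusted p = 0.219), -2.58 ± 0.25 in HF and -2.57 ± 0.30 in CHO.

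The Sult1c2 response was higher in EtOH than in CHO by 2.08 ± 0.39 (adjusted p = 0.00191, 2.94% of all genes passed), and than in HF by 2.08 ± 0.35 (adjusted p = 0.000483, 5% of all genes). Without CHO replicate 2 the first became 1.90 and did not pass (adjusted p = 0.055). The remnants of the 3 diets overlapped, at 5.20 to 7.24 in EtOH, 5.82 to 6.01 in HF and 5.97 to 6.66 in CHO, after starting apart. As a mean of the 3 diets at 24 h, the 2 probe sets that name Sult1c2a and Sult1c2 gave -1.81 ± 0.15 and -1.84 ± 0.14. The set of Sult1c2 alone gave -1.88 ± 0.15. These means do not show whether the shared sets also differed between diets.

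Gsto1 also differed at 24 h. It went from 9.88, 9.80 and 9.66 to 9.51, 9.80 and 9.92 in EtOH, from 10.20, 10.09 and 10.00 to 9.40, 9.54 and 9.53 in HF, and from 9.91 and 9.73 to 9.35 and 9.34 in CHO. All HF and CHO animals fell, by 0.60 and 0.47 on average (-0.60 ± 0.11 and -0.47 ± 0.14), while EtOH gave -0.04 ± 0.11. EtOH minus HF was 0.57 ± 0.16 (adjusted p = 0.0333), a call that was lost without EtOH replicate 3 (0.42) or HF replicate 1 (0.47) and 2 others. Within diets, 13 genes fell in EtOH (14.2% of all genes passed, 8.68% falling), 14 fell and 1 rose in HF (24.9%, 10.8% falling) and 12 fell in CHO (16.7%, 6.92% falling). The EtOH count was 7 without replicate 1 or 2, and the CHO count 7 without replicate 4. The rise in HF was Gstm5 (0.57 ± 0.16, adjusted p = 0.0101). HF and CHO did not differ in limma in the response of any of the 37 genes at 1, 6 or 24 h (0% of all genes passed at each), and 0, 1 and 0 had an unadjusted p below the threshold.

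**Figure D4:**
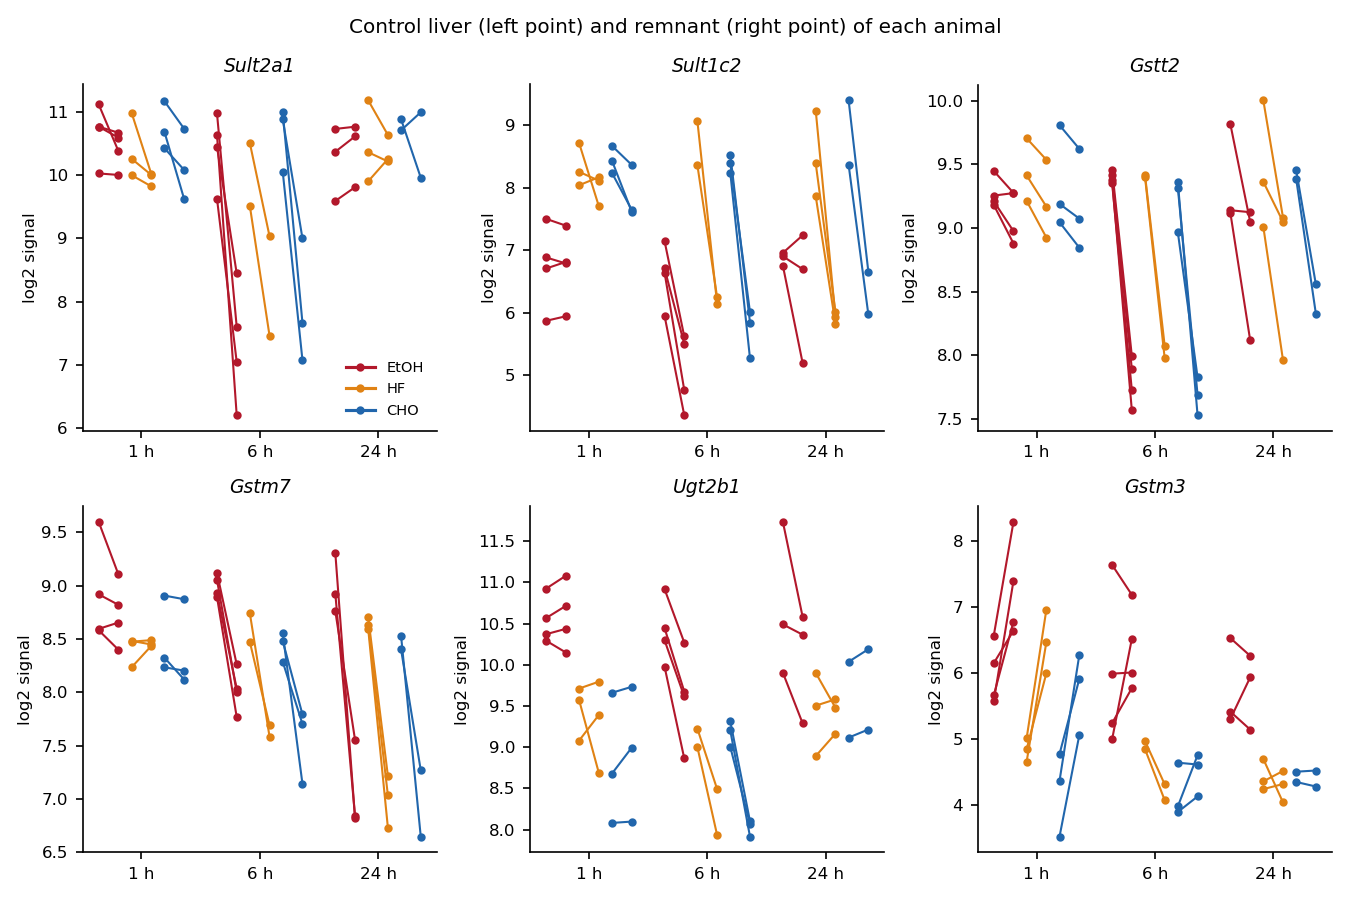
Log2 signal (y axis) of the control liver (left point of each line) and the remnant (right point) of each animal for 6 genes at 1, 6 and 24 h, coloured by diet. Sult2a1 fell in all animals at 6 h and was near its controls at 24 h, Gstm7 was lower at 6 h and lower again at 24 h, and Gstm3 rose in all 10 animals at 1 h.

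**Figure D5:**
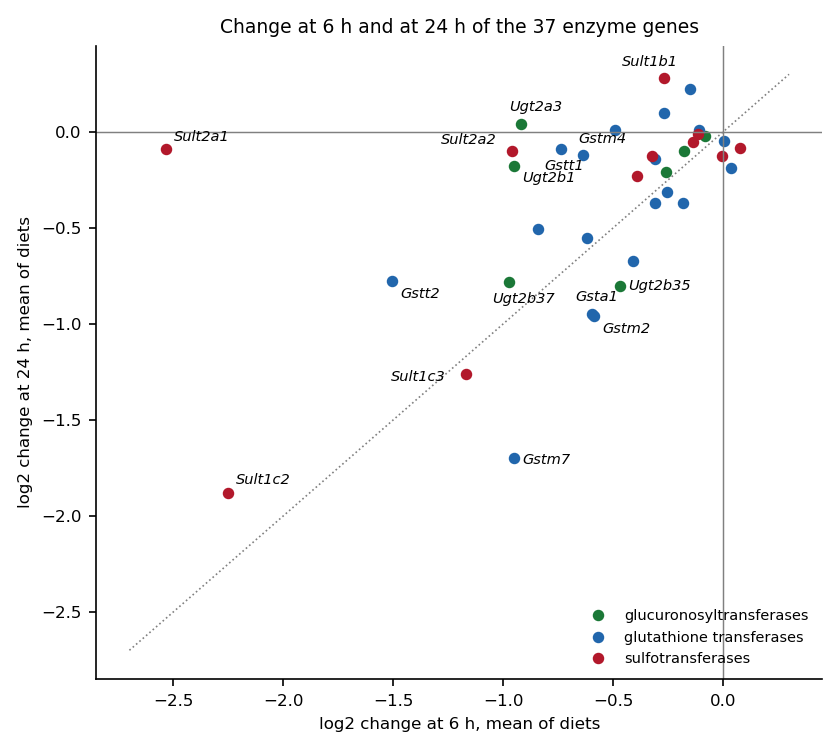
Mean log2 change at 6 h (x axis) and at 24 h (y axis) of the 37 genes, coloured by family, with the dotted line of equal change. Sult2a1 (-2.53 and -0.09) lies on the zero line of the 24 h axis, Sult1c2 (-2.25 and -1.88) lies near equal change, and Gstm7 (-0.95 and -1.70) lies below it.

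Genes listed for co-substrate supply and related steps moved unevenly. For each list, the share of all genes is 20% rising and 19.9% falling at 6 h. The list around UDP-glucuronate and glucuronides held 5 genes (Ugp2, Ugdh, Slc35d1, Slc35a3 and Gusb), not all of which supply UDP-glucuronate. At 6 h, 4 of them fell and 1 rose. Among the falls were Ugp2 (-1.27) and Ugdh (-0.999), the enzymes that make UDP-glucose and UDP-glucuronate. Ugp2 was also lower in ethanol controls (-1.09 and -0.98 against CHO and HF), as was Ugdh (-0.50 and -0.42), where Ugt2a3 and Ugt2b1 were higher. Of 11 genes of glutathione synthesis and turnover, 6 fell and 1 rose at 6 h, with falls of Gclm (-2.08) and Gclc (-1.22), the subunits of the rate-limiting ligase, and a rise of Gss (0.42). Of 8 genes measured for sulfate donor supply and sulfatases, 2 rose (Bpnt1 0.60, Papss2 0.33) and 2 fell (Arsa -0.92, Suox -0.88).

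Over all genes, 20% rose and 19.9% fell at 6 h, and 16.6% rose and 17.4% fell at 24 h. Of 13 measured regulators, 10 fell and 2 rose at 6 h, and 10 fell and 1 rose at 24 h. At 6 h Ppara (-3.13), the CAR gene Nr1i3 (-2.21), Cebpa (-1.54) and Ahr (-1.03) fell, Nr1i2 changed by -0.25, and Hnf4a did not pass (-0.05). Of 13 measured NRF2 targets, 5 rose (Hmox1 2.15, Nqo1 0.78) and 4 fell (Gclm -2.08, Akr7a3 -1.45) at 6 h, and Nqo1 was at 2.65 at 24 h. Of 7 efflux transporters, 2 rose (Abcb1b 1.66) and 3 fell (Abcc2 -1.52) at 6 h, and Abcc3, which carries glucuronides to blood, was higher in ethanol controls (1.58 and 1.49). Of 11 other conjugating enzymes, 7 fell (glycine conjugation enzyme Glyat -2.85) and 1 rose (Nnmt 2.76) at 6 h.

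Marker genes of other cells also moved after PHx. Of all genes, 20% rose and 19.9% fell at 6 h, and 16.6% rose and 17.4% fell at 24 h. Each count of rising or falling markers covers that direction only. At 1 h, 6 of 11 macrophage markers rose (4.47% of all genes). At 6 h, 5 of 7 neutrophil and 4 of 6 endothelial markers rose, while 5 of 8 stellate, 4 of 9 pericentral and 2 of 3 erythroid markers fell. The mean stellate level ran from 6.21 to 6.73 in 6 h controls and from 6.10 to 6.47 in remnants, and the pericentral level from 7.45 to 7.97 and from 7.16 to 7.90. At 24 h, 4 of 7 neutrophil markers rose, and 7 of 10 periportal, 3 of 3 erythroid and 2 of 6 endothelial markers fell. The mean periportal level ran from 9.54 to 10.11 in 24 h controls and from 8.99 to 9.71 in remnants, and the endothelial level from 7.11 to 7.57 and from 6.98 to 7.35. Of 10 hepatocyte markers, 5 fell and 2 rose at 6 h, and their mean level ran from 12.66 to 12.75 in 6 h remnants and from 12.71 to 12.79 in their controls. At 24 h, 5 fell and 1 rose, with a mean level from 12.58 to 12.71 in remnants and from 12.62 to 12.86 in controls. The part of these shifts in the enzyme results was not tested. By scan day, the change had the same direction on every day for 2 of 2 called genes at 1 h, 24 of 26 at 6 h (not Gsto1 and Sult1b1) and 14 of 16 at 24 h (not Gsto1 and Sult1c2).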

How the data were processed

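Total RNA from freeze-clamped liver was hybridised to Affymetrix Rat Gene 1.0 ST arrays. The submitters' processing notes name RMA and Affymetrix Expression Console. The deposited tables hold log2 values, and per the file headers the batch-corrected table used here was also adjusted by the authors with a mixed-effects model. A deposited table without outliers and one before batch correction served as alternatives.

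Of 29214 probe sets, 15310 name 1 gene. The probe set of highest mean stood for each of 14506 genes, with no filter. Responses were fitted in limma 3.58.1 (R 4.3.3) on 54 arrays with the animal as a fixed block, and control livers on 29 arrays with scan day as a fixed block. Adjusted p is Benjamini-Hochberg over all 14506 genes, called below 0.05. The CHO control arrays of 1 h replicate 3 and 6 h replicate 1 were left out of control comparisons because a deposited table disagrees on their columns. The number of arrays limits precision. The fits were tested on simulated data with independent normal noise and fixed added shifts. Such data do not test how well the models suit these arrays.

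Pairing rests on the same animal: control and remnant deviations of 27 animals correlated at a median r of 0.20 (-0.70 to 0.44). The protocols name a 12 h time, for which the series holds no array. The genes and lists were chosen with earlier results of these data known. Given in detail were the 3 called genes of largest change per family and comparison, and the 2 called at 1 h. Responses were given in every animal, and control livers as lowest, median and highest level. Gsto2 at 6 h and Gsto1 at 24 h were added because their responses differed between diets. Labels do not say whether replicates differ beyond the animal, so p-values measure spread between animals.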

Additional observations from a re-analysis of the deposited data

Results flagged for a closer look

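Single samples stood apart from the rest of their group by Dixon's gap test in 5 of 57 sets of values (1 gene in 1 group of 4 to 10 samples), where chance alone marks about 1 in 20. Among HF control livers, 24 h replicate 1 was low for Gstm4 (8.10, the others 8.51 to 8.89) and for Gstt1 (7.28, the others 7.75 to 8.08). HF 1 h replicate 2 was low for Ugt2a3 (7.69, the others 8.46 to 9.13), and CHO 24 h replicate 2 was high for Sult1c2 (9.40, the others 8.24 to 8.67). In the 6 h response, EtOH replicate 2 fell further than the others for Ugt2b37 (-1.21, the others -0.65 to -0.62).

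The response differed between diets for 3 genes by a test of the difference itself. Gsto2 at 6 h was higher in EtOH than in CHO (0.91) and than in HF (0.99). Sult1c2 at 24 h was higher in EtOH than in CHO (2.08) and than in HF (2.08), and Gsto1 at 24 h was higher in EtOH than in HF (0.57). These comparisons share the EtOH animals.

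The response differed between times for 23 genes from 1 to 6 h (32.7% of all genes passed) and for 15 from 6 to 24 h (29% of all genes). In log2 units, the 6 h response lay below that at 1 h for Sult2a1 (-2.09), Sult1c2 (-1.95), Gstm3 (-1.48), Gstt2 (-1.32), Sult1c3 (-1.07), Ugt2a3 (-0.96), Ugt2b1 (-0.96), Gstm7 (-0.88), Ugt2b37 (-0.86), Gsta4 (-0.71), Sult2a2 (-0.69) and Gstm4 (-0.68). The same held for Gstt1 (-0.58), Gstm2 (-0.57), Mgst2 (-0.54), Gsta1 (-0.50), Gstp1 (-0.43), Ugt2b35 (-0.42), Gstm1 (-0.42), Sult1a1 (-0.38), Sult2b1 (-0.34), Gstm6l (-0.27) and Mgst1 (-0.21). The 24 h response lay above that at 6 h for Sult2a1 (2.44), Ugt2a3 (0.96), Sult2a2 (0.86), Ugt2b1 (0.77), Gstt2 (0.73), Gstt1 (0.65), Sult1b1 (0.55), Gstm4 (0.52), Gstm5 (0.37) and Mgst1 (0.37). It lay below for Gstm7 (-0.75), Gstm2 (-0.37), Gsta1 (-0.35), Ugt2b35 (-0.33) and Gstm1 (-0.26). The times were scanned on different days, and animals differ between times.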

How the results depend on the processing

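Of 227 calls of single genes over the 26 comparisons, 133 were lost in no alternative and 1 changed sign, Gstk1 in EtOH minus CHO controls, which was -0.17 in the 24 h cohort alone. The count of genes called stayed within 1.5 times that reported under the table without outliers, the values before batch correction, quantile normalization, the mean of probe sets, and the 2 control arrays put back. With all 72 arrays, EtOH minus CHO counted 0 genes at 6 h and 2 at 24 h, and EtOH minus HF 0 and 1. With array weights the response differences of EtOH at 6 h counted 2 against CHO and 2 against HF, EtOH minus HF at 24 h counted 1, and the EtOH response at 24 h counted 7. Only genes of mean level at least 5 left 0 in both 6 h differences, since Gsto2 was then not tested. With no replicate block (scan day in place of the animal), the 1 h response counted 0 in each of EtOH, HF and CHO and 1 in their mean, the HF response at 6 h counted 12, the EtOH response at 24 h counted 8, both 6 h differences counted 0 and EtOH minus HF at 24 h counted 1. A replicate block by cohort and number for the control livers ended 0 of 32 calls, and so did leaving out the scan-day block. Control arrays of the same number correlated at a median r of 0.016 over 25 pairs, so the number alone does not pair them.

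Within a single cohort (1, 6 and 24 h), EtOH minus CHO controls counted 5, 5 and 2 genes, and EtOH minus HF 3, 7 and 4, with fewer arrays. With 1 animal left out in turn, counts ranged from 1 to 3 for the mean 1 h response, from 6 to 22 for HF at 6 h (6 without HF replicate 3, 11 without HF replicate 4), from 7 to 14 for EtOH at 24 h (7 without replicate 1 or 2) and from 7 to 12 for CHO at 24 h (7 without CHO replicate 4). They ranged from 0 to 2 for both 6 h differences of EtOH, where the call of Gsto2 rested on many single animals. They ranged from 1 to 2 for EtOH minus CHO (2 without CHO replicate 2, Sult1c2 not among them) and from 1 to 3 for EtOH minus HF at 24 h (1 without EtOH replicate 3 or HF replicate 1), and from 0 to 1 for HF minus CHO controls (1 without HF 1 h replicate 2). For lost calls the cause was not tested, other than fewer arrays or genes where stated. Genes near the array medians carry no detection call, so signal over background limits them. The values by scan day and the fit of all probe sets were chosen after seeing the data.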
